A study of Rattus norvegicus with 6 samples.

Results

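The genes described here are 36 genes of the endoplasmic reticulum, the compartment in which secreted and membrane proteins are folded. They are chaperones, sensors of the unfolded protein response and parts of the machinery that moves new proteins across the membrane. They were chosen by name and not by their measured values, although earlier results of these data were known. All 36 were found among the 33294 gene symbols of the count tables. RNA was sequenced from whole pituitary glands of 3 nicotine-exposed rats and 3 control rats, male Sprague-Dawley offspring aged 11 weeks, with 1 library per rat. The mothers of the nicotine group received nicotine tartrate at 6 mg/kg per day in sterile saline from a 28-day osmotic pump under the skin, and the mothers of the control group received sterile saline from the same kind of pump. Birth was recorded 13 days after the pump was placed, on gestational day 19. The litter of each rat is not given, so rats of 1 group may share a mother.

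A new secretory protein enters the endoplasmic reticulum through the Sec61 channel, signal peptidase removes its signal peptide, and chaperones and protein disulfide isomerases fold it. Proteins that fail to fold are sent back to the cytosol for degradation. When unfolded proteins build up, 3 sensors, IRE1 (gene Ern1), PERK (Eif2ak3) and ATF6 (Atf6), start the unfolded protein response, which raises transcription of chaperone and degradation genes. Hormone cells of the anterior pituitary pass large amounts of growth hormone and prolactin through this route.

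The libraries held 28318383 to 85977002 counts. Control replicate 1 was the shallowest and nicotine replicate 2 the deepest, and the median total of the nicotine group was 1.70 times that of the control group. The growth hormone gene Gh1 took 5.34% to 12.4% of the counts of a library and the prolactin gene Prl took 1.88% to 3.64%. The extraction protocol in the labels speaks of testis, but 8 marker genes of testis germ cells summed to at most 0.148 CPM (counts scaled to the size of the library), and 3 of them had 0 counts in every library. A table of read numbers supplied with the study gives more reads to the control group than to the nicotine group, which is the reverse of the totals found here. Library by library, the totals stand in a nearly constant ratio to that table only if its groups are exchanged. Which of the sources is in error was not tested. The group of each library was taken from its label, and every direction given below rests on that label. The summed level of 8 fibroblast and meningeal marker genes was 346 to 819 CPM in the nicotine group and 896 to 1052 CPM in the control group, so these groups did not overlap. The 7 posterior lobe marker genes summed to 93.9, 248 and 100.2 CPM in the nicotine group and 87.1, 51.4 and 20.8 CPM in the control group, which did not overlap either, with nicotine replicate 2 the highest. Most of the sum in that library came from Avp (129 CPM) and Oxt (73.9 CPM). The log2 fold changes of Avp, Oxt, Nkx2-1, Rax and Col25a1 were 1.40 to 2.28. Aqp4 changed little (0.13), and Gfap went the other way (-0.66). The 7 red blood cell genes summed to 3269 to 10381 CPM in the nicotine group and 8611 to 17309 CPM in the control group, and the 8 macrophage and neutrophil genes to 63.4 to 99.0 CPM and 84.6 to 193 CPM. The 8 endothelial genes summed to 177 to 287 CPM in the nicotine group and 143 to 192 CPM in the control group. The 8 smooth muscle genes lay at 57.2 to 218 CPM and 48.4 to 63.3 CPM. The 21 anterior hormone cell genes (119959 to 183714 CPM and 152095 to 165648 CPM), the 7 folliculostellate genes (414 to 570.0 CPM and 404 to 464 CPM) and the 7 B and plasma cell genes found (3.28 to 4.39 CPM and 4.16 to 11.4 CPM) overlapped between the groups. Single hormone genes were less even than their sum. Nicotine replicate 2 had the highest Gh1 (115750 CPM, others 52411 to 86527) and Lhb (820 CPM, others 75.6 to 223). It had the lowest Prl (17542 CPM, others 25319 to 38024) and Pomc (20405 CPM, others 27320 to 71802). In a whole gland, fewer cells of a type and less RNA per cell cannot be told apart, and the part of these markers in the results below was not tested.

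Promoter sequences are shown first because the unfolded protein response acts on many of these genes through short promoter elements. The endoplasmic reticulum stress element, ERSE, is a CCAAT box followed by a CCACG box, with 9 bases of any kind between them. The shorter ERSE-II is ATTGG followed by CCACG, with 1 base of any kind between them, and the unfolded protein response element, UPRE, was searched as TGACGTGG. RefSeq promoters of build GRCr8, running from 250 bases before to 50 bases after the annotated gene start, were searched on both strands for 28 of the 36 genes. The ERSE was present in the promoters of 7 of these 28 genes (25.0%) and in 21 of all 33468 promoters searched (0.0627%). A gene of the 28 was counted once over all its promoter windows, while the 33468 promoters were counted as single windows. The elements were searched because they act on many of these genes, so a higher share was largely fixed in advance. The ERSE-II was present in 3 of 28 (10.7%) and in 17 of 33468 (0.0508%). The UPRE letters were present only in Hyou1 among the 28 and in 0.595% of all promoters. The CCACG letters alone were in promoters of 20 of the 28 genes (31.6% of all promoters) and the CCAAT letters alone in 24 (37.5% of all promoters), and both are contained in the ERSE.

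The 8 ERSE matches are printed below on the gene's own strand, 5′ to 3′, each with 10 bases on either side. Capitals mark the element. A match that starts with CGTGG lies on the opposite strand.
Hspa5 (GRCr8 chr3:38452963-38453001, + strand): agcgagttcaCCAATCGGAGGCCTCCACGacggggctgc
Hsp90b1, upstream site (chr7:23012441-23012479, - strand): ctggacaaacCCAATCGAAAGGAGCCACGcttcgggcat
Hsp90b1, downstream site (chr7:23012337-23012375, - strand): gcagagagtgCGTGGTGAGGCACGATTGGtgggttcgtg
Dnajc3 (chr15:102432524-102432562, + strand): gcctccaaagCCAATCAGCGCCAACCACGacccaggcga
Calr (chr19:40213125-40213163, + strand): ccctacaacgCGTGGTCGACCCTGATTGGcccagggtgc
Creld2 (chr7:121789229-121789267, + strand): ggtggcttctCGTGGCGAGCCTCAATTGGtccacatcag
Xbp1 (chr14:84604548-84604586, + strand): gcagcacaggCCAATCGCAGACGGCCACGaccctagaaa
Derl3 (chr20:12766591-12766629, - strand): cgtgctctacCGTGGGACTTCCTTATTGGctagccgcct

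The ERSE-II matches are printed in the same way. The upstream Hyou1 element overlaps the UPRE letters of that promoter, which begin 3 bases before it on the gene's strand.
Hyou1, upstream site (GRCr8 chr8:53602684-53602714, + strand): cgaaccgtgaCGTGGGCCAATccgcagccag
Hyou1, downstream site (chr8:53602784-53602814, + strand): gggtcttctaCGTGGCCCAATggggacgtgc
Dnajb11 (chr11:91672790-91672820, - strand): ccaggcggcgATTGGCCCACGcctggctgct
Herpud1 (chr19:10614811-10614841, - strand): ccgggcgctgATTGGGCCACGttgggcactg

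Dnajb9, the gene with the largest fold change of the 36, had none of the 3 elements in its window. The stretch of its promoter that holds a CCACG and a CCAAT, in capitals, is shown for comparison with the elements above. The CCAAT box lies downstream of the CCACG box here, and the 2 boxes are further apart than in an ERSE.
Dnajb9 (GRCr8 chr6:67002079-67002186, - strand): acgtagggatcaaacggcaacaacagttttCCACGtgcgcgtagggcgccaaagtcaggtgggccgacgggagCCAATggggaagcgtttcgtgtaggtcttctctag

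The plot of element positions shows where the matches lie. By role, an ERSE or ERSE-II was found in 5 of 7 promoters of lumenal chaperones of the HSP70 and HSP90 families with their partners, in 1 of 3 promoters of lectin chaperones and isomerases, in 1 of 3 promoters of sensors and factors, in 2 of 6 promoters of degradation genes, and in 0 of 8 promoters of translocon and signal peptidase genes. The remaining match was in Creld2. A match describes the letters of a window and is not evidence that a factor binds there.

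**Figure D1:**
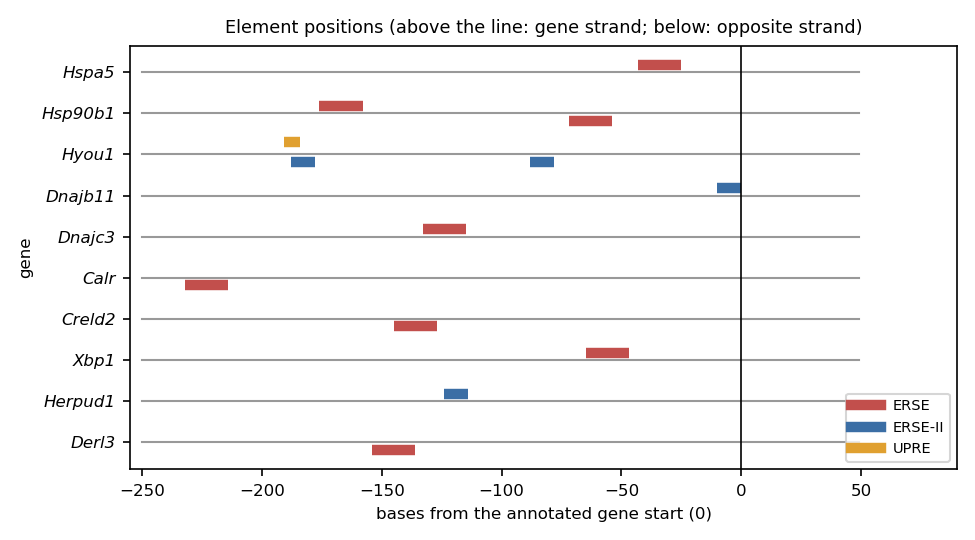
Positions of ERSE (red), ERSE-II (blue) and UPRE (yellow) matches in the 10 promoters that hold one, in bases from the annotated gene start (horizontal axis), 1 gene per line. Matches on the gene's strand are drawn above the line and those on the opposite strand below it. They lie between 232 bases before the start (Calr) and the start itself (Dnajb11).

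The question was whether these genes differed in level between nicotine-exposed and control rats. A gene was called where its change exceeded 1.5-fold and its adjusted p was below 0.1, by the quasi-likelihood test of edgeR with Benjamini-Hochberg adjustment over the 17292 genes tested. None of the 36 was called. The same test called 0% of all genes tested (0 of 17292), while 1062 (6.14%) had an unadjusted p under 0.05. DESeq2, the tool named in the study's methods, called 0 of the 36, and 62 of the 17876 genes to which it gave an adjusted p (0.347%, 19 higher and 43 lower). All 36 passed the filter on low counts. Their adjusted p-values in edgeR ran from 0.806 to 0.998. At an unadjusted p under 0.05, 1 of the 36 (2.78%) was lower in the nicotine group, Dnajb9, and 0 were higher. Among all genes tested 3.01% were lower and 3.13% higher at that level. Without nicotine replicate 2 an unadjusted p under 0.05 was found for 2 of the 36 (5.56%), Dnajb9 and Spcs3, against 6.67% of all genes in that setting. There were 0 of the 36 without nicotine replicate 3 (7.13% of all genes), without control replicate 1 (3.82%) and without control replicate 2 (4.97%). Dnajb9 was the 1 such gene with library sizes alone (6.43% of all genes), without nicotine replicate 1 (9.07%) and without control replicate 3 (4.81%).

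Of the 36 log2 fold changes, nicotine over control, 13 were above 0 and 23 below 0. They ran from -0.59 to 0.30 with a median of -0.08, and the median over all genes tested was 0.01. In 4 of the 36 genes (11.1%) the 3 nicotine values all lay below the 3 control values, namely Dnajb9, Canx, Edem1 and Ssr3, and in 0 genes they all lay above. Among all genes tested, 11.3% had groups without overlap, 5.14% in the lower and 6.12% in the higher direction, so the share of the 36 genes was close to the background. With library sizes alone 2 of the 36 (5.56%) had no overlap, Dnajb9 and Ssr3, against 11.7% of all genes. With 1 library left out, so that 2 rats were set against 3, there were 5 to 9 of the 36 (13.9% to 25.0%), against 17.1% to 25.6% of all genes. The counts were 9 without nicotine replicate 1 (25.6% of all genes) or control replicate 2 (21.3% of all genes) and 7, or 19.4%, without nicotine replicate 2 (21.8% of all genes). There were 6 without nicotine replicate 3 (21.5% of all genes) or control replicate 3 (23.3%) and 5 without control replicate 1 (17.1%). The 95% interval of the fold change lay within 1.5-fold in both directions for 20 of the 36 genes (55.6%), against 32.9% of all genes tested. It lay within 2-fold for 34 of the 36 (94.4%), against 72.3% of all genes. The exceptions were Dnajb9 and Sec61g. The ratio of the highest to the lowest library had a median of 1.40 over the 36 genes and 1.70 over all genes tested. The 36 genes had at least 340 counts in every library, while the genes tested include genes with fewer counts. In the wider list described below, the interval lay within 1.5-fold for 67 of 112 genes and within 2-fold for 108. Narrow intervals were therefore not particular to the 36 genes, and the part of count level was not tested.

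**Figure D2:**
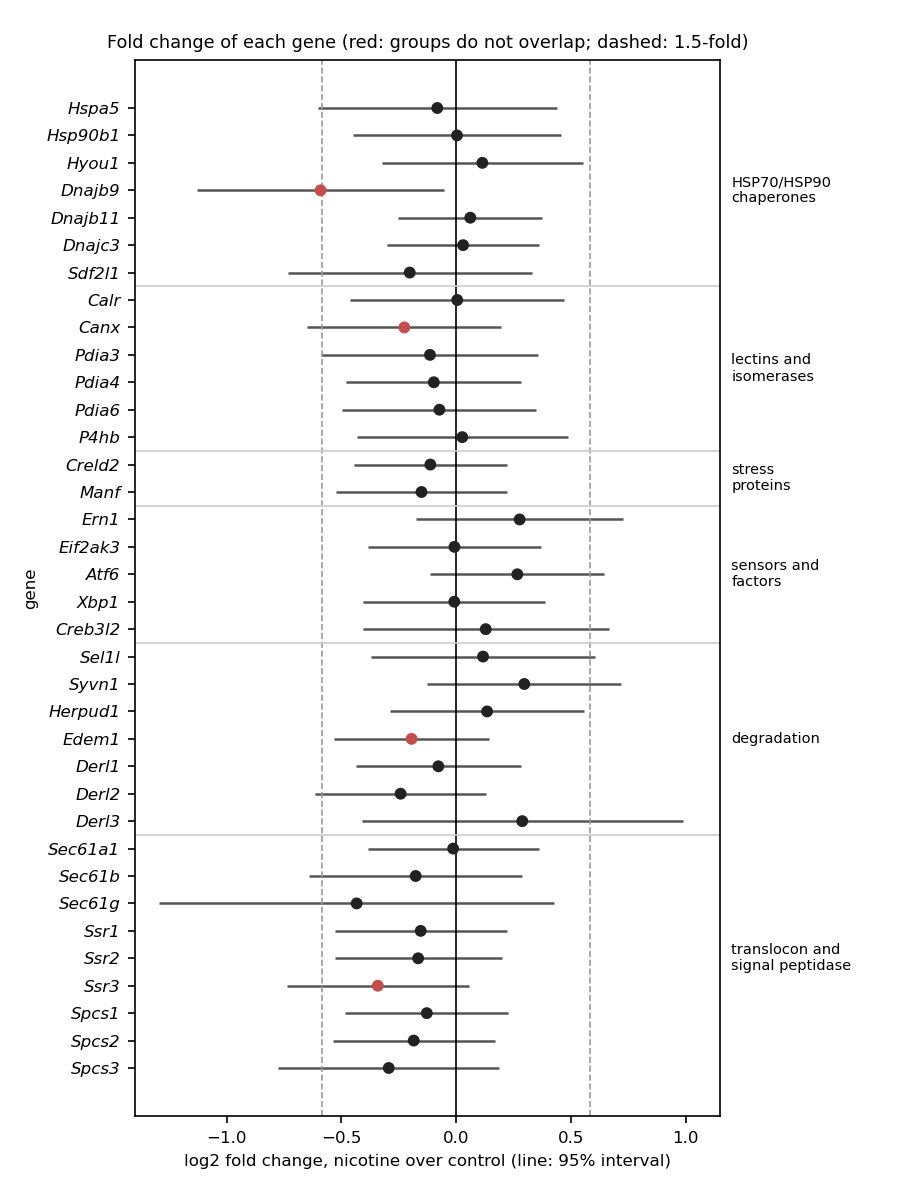
Log2 fold change of each of the 36 genes, nicotine over control (horizontal axis, points), with 95% intervals (lines), grouped by role. Dashed lines mark 1.5-fold, and red points mark the 4 genes whose groups do not overlap. All 9 translocon and signal peptidase points lie below 0, from -0.43 (Sec61g) to -0.01 (Sec61a1).

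Levels below are CPM after TMM scaling, in the order of replicates 1, 2 and 3. CPM is not divided by transcript length, so values are compared between libraries and not between genes. Rats of 1 group typically varied by 23.6% (the common biological coefficient of variation in edgeR).

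The lumenal chaperones of the HSP70 and HSP90 families bind unfolded chains in the lumen. Hspa5 encodes BiP, the main HSP70 chaperone of the compartment, and it had the most counts of the 36 genes. Its level was 1666, 2017 and 1972 CPM in the nicotine group and 2115, 1763 and 2109 CPM in the control group. These values overlapped, with a log2 fold change of -0.08 (standard error, SE, 0.24, edgeR adjusted p = 0.958). Hsp90b1, which encodes the HSP90 chaperone GRP94, differed less, with 1118 ± 95.3 CPM after nicotine and 1115 ± 115 CPM in controls (SD, n = 3). Hyou1, a nucleotide exchange partner of BiP, had a log2 fold change of 0.11. Dnajb11 and Dnajc3, both J-domain partners of BiP, had 0.06 and 0.03. The levels of Dnajb11 spanned only 49.3 to 57.2 CPM over the 6 libraries, the narrowest range of the 36 genes in proportion.

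Dnajb9, which encodes the J-domain protein ERdj4 that regulates BiP and IRE1, had the largest fold change. Its level was 499.9, 245 and 370.0 CPM in the nicotine group and 604, 547 and 527 CPM in the control group. Every nicotine value was below every control value, and nicotine replicate 2 was the lowest. The log2 fold change was -0.59 (SE 0.24, 95% interval -1.13 to -0.05), with an unadjusted p of 0.0343 and an adjusted p of 0.806 in edgeR. The exact two-sided permutation test gave 0.1, the smallest p that 3 against 3 rats allow. DESeq2 gave an adjusted p of 0.610 for Dnajb9. Without nicotine replicate 2 the log2 fold change was -0.37, and without nicotine replicate 1 it was -0.86. The unadjusted p was 0.0749 without nicotine replicate 3, 0.101 without control replicate 1 and 0.0643 without control replicate 2. Set against BiP in the same library, the ratio of Dnajb9 to Hspa5 counts was 0.300, 0.121 and 0.188 in the nicotine group and 0.286, 0.310 and 0.250 in the control group. These ratios overlapped, because nicotine replicate 1 lay within the control range.

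Sdf2l1 encodes a partner of ERdj3, the product of Dnajb11. Its level was 116, 81.7 and 159 CPM in the nicotine group and 155, 149.5 and 105 CPM in the control group. Nicotine replicate 2 was at 0.546 times the median of the other 5 libraries, and the groups overlapped. Its log2 fold change was -0.20, and it was -0.0003 without nicotine replicate 2.

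**Figure D3:**
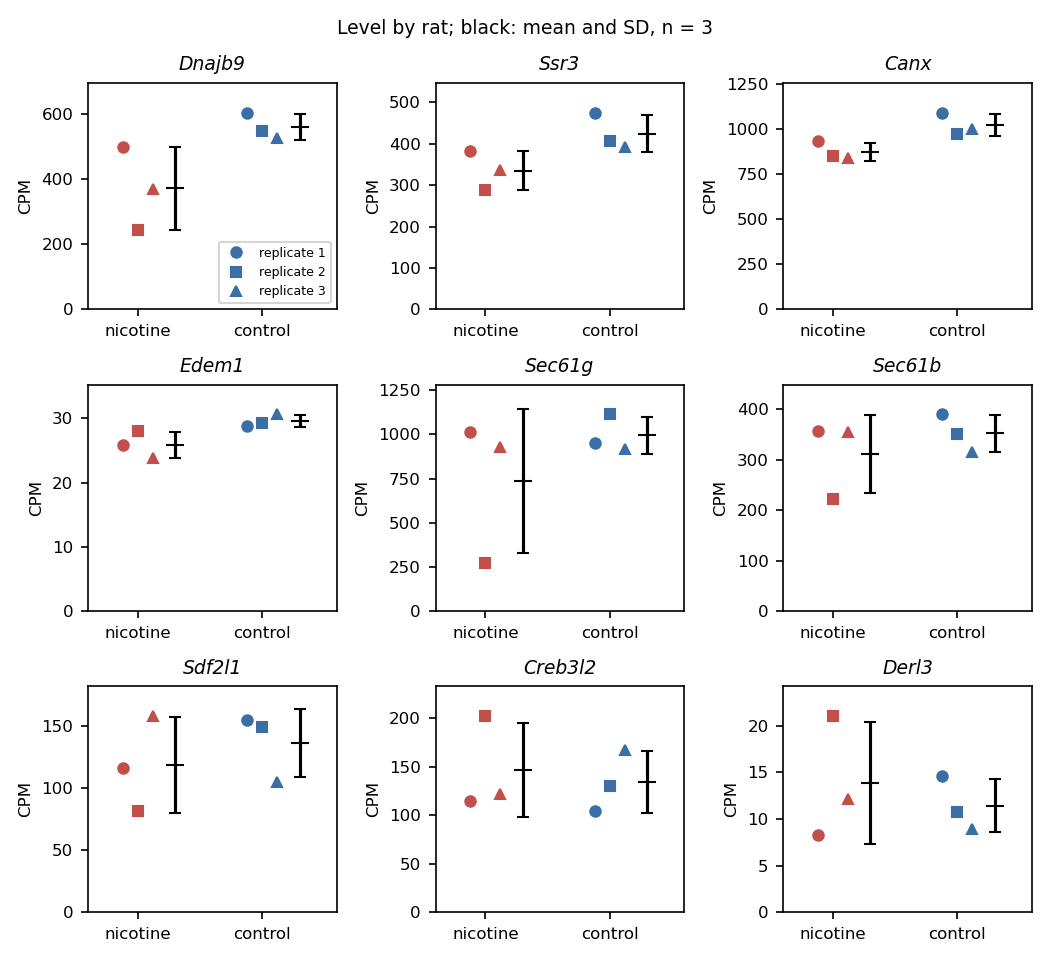
Level in CPM (vertical axes, starting at 0) of 9 genes in each nicotine (red) and control (blue) rat. Symbols give the replicate number, and black marks give the mean and SD (n = 3). Nicotine replicate 2 (red squares) is the lowest library for Dnajb9, Ssr3, Sec61g, Sec61b and Sdf2l1 and the highest for Creb3l2 and Derl3.

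Calreticulin (Calr) and calnexin (Canx) are the lectin chaperones, which hold glycoproteins by their sugar chains. Canx was at 933, 851 and 841 CPM in the nicotine group and 1093, 975 and 1004 CPM in the control group. The groups did not overlap, but the gap between nicotine replicate 1 and control replicate 2 was small. The log2 fold change of Canx was -0.23 (SE 0.19, edgeR adjusted p = 0.846). Calr, its soluble relative, was at 1073 ± 174 CPM after nicotine and 1070 ± 39.9 CPM in controls (SD, n = 3), a log2 fold change of 0.005 that took either sign among the alternatives.

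The protein disulfide isomerases form and rearrange disulfide bonds. Pdia3, which works with the lectin chaperones, was at 1423, 1369.6 and 1417 CPM in the nicotine group and 1679, 1363 and 1515 CPM in the control group. Control replicate 2 was the lowest library, so the groups overlapped. The log2 fold changes of Pdia3, Pdia4, Pdia6 and P4hb were -0.11, -0.10, -0.07 and 0.03. P4hb encodes the classical isomerase, which is also a subunit of prolyl 4-hydroxylase. Its change was -0.16 without nicotine replicate 2, where it was highest (840.5 CPM, with the other 5 libraries between 576 and 757 CPM).

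Creld2 and Manf encode small lumenal or secreted proteins that are induced by endoplasmic reticulum stress. Manf was at 254, 203 and 260.2 CPM in the nicotine group and 290.4, 263 and 242 CPM in the control group, and the groups overlapped. The log2 fold changes were -0.15 for Manf and -0.11 for Creld2, and neither passed the test.

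The 5 sensors and transcription factors of the unfolded protein response had a median log2 fold change of 0.13, and 0 of them were called. Ern1, the gene of IRE1, was at 45.004, 73.5 and 50.7 CPM in the nicotine group and 40.5, 45.0004 and 54.1 CPM in the control group. Its log2 fold change was 0.28, and it was 0.03 without nicotine replicate 2, which stood at 1.63 times the median of the others. Atf6 was at 54.6 ± 8.39 CPM after nicotine and 45.3 ± 5.61 CPM in controls (SD, n = 3), a log2 fold change of 0.27 that was 0.15 without nicotine replicate 2. Eif2ak3, the gene of PERK, had a log2 fold change of -0.01. Xbp1, whose transcript IRE1 splices into the form that encodes an active factor, was at 384, 368 and 294 CPM in the nicotine group and 338, 396 and 317 CPM in the control group, with the same log2 fold change of -0.01. Counts per gene do not separate spliced from unspliced Xbp1, so the activity of IRE1 was not measured. Creb3l2 encodes a factor that, like ATF6, is cut free from the membrane and acts on secretory pathway genes. It was at 115, 203 and 122 CPM in the nicotine group and 105, 130.1 and 168 CPM in the control group. Its log2 fold change of 0.13 became -0.19 without nicotine replicate 2.

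Among the 7 genes for degradation of misfolded proteins, 4 log2 fold changes were above 0 and 3 below, with a median of 0.12. Sel1l and Syvn1 encode the adaptor and the ubiquitin ligase of the main degradation complex, and Herpud1 a protein attached to it. Sel1l was at 99.6, 173 and 99.2 CPM in the nicotine group and 105, 111 and 127 CPM in the control group. Nicotine replicate 2 was above, and the other nicotine libraries below, every control library, and without replicate 2 the log2 fold change of Sel1l turned from 0.12 to -0.21. Syvn1 had the highest log2 fold change of the 36 genes, 0.30 (SE 0.19, edgeR adjusted p = 0.832), with overlapping groups at 47.0 to 70.2 CPM and 39.5 to 55.7 CPM. The log2 fold change of Herpud1 was 0.13, and -0.09 without nicotine replicate 2.

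Edem1 encodes a lectin-like protein that marks misfolded glycoproteins for removal. It was at 25.8, 28.0 and 23.9 CPM in the nicotine group and 28.9, 29.3 and 30.7 CPM in the control group. The groups did not overlap, at a log2 fold change of -0.19 (SE 0.15, edgeR adjusted p = 0.841). The derlins Derl1, Derl2 and Derl3 are membrane proteins through which misfolded chains leave the compartment. Derl1 was at 248, 249 and 209 CPM in the nicotine group and 275, 229 and 241 CPM in the control group. Derl2 was at 57.7 ± 5.47 CPM and 68.2 ± 11.6 CPM (SD, n = 3), and its log2 fold change was -0.24 with overlap between the groups. Derl3 had the fewest counts of the 36 genes and was at 8.27, 21.1 and 12.2 CPM in the nicotine group and 14.6, 10.8 and 8.98 CPM in the control group. Its log2 fold change of 0.29 (SE 0.32) became -0.16 without nicotine replicate 2.

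All 9 translocon and signal peptidase genes had a log2 fold change below 0, with a median of -0.18, and none passed the test. Their intervals all included 0. Of all 17292 genes tested, 8468 were below 0. The wider list described below holds 26 other translocation and signal recognition genes. Of those 26, 15 were below 0 and 11 above, with a median of -0.07. Of the 9 translocon and signal peptidase genes, 8 were below 0 with library sizes alone, without control replicate 1 and without control replicate 2. There were 7 without nicotine replicate 2. The genes that turned above 0 were Sec61a1 in all these settings, at up to 0.10, and Sec61b without nicotine replicate 2, at 0.01. Sec61a1, Sec61b and Sec61g encode the 3 subunits of the Sec61 channel. Sec61a1, the pore itself, was at 127 ± 19.5 CPM after nicotine and 128 ± 13.3 CPM in controls (SD, n = 3).

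Both small subunits were low in 1 library. Sec61g was at 1012, 269 and 931 CPM in the nicotine group and 953, 1116 and 918 CPM in the control group. Nicotine replicate 2 was at 0.283 times the median of the other 5 libraries, which themselves lay close together, and no other of the 36 genes had a library so far from the rest. The log2 fold change of Sec61g was -0.43 (SE 0.39, edgeR adjusted p = 0.85) and -0.05 without nicotine replicate 2. Sec61b was at 356.2, 223 and 355.9 CPM in the nicotine group and 391, 350.2 and 315 CPM in the control group, lowest in the same library. Low values in nicotine replicate 2 were not limited to these subunits. It was the library furthest from the others, and over 1.5-fold low, in 16 of 112 genes of the wider list below (9 high). Over all 17292 genes tested it was so in 2243 (1143 high). The ratio of Sec61g to Sec61b counts was 1.21 in nicotine replicate 2 and 2.44 to 3.19 in the other 5 libraries. RefSeq lists 13 loci named as Sec61g-like or as Sec61g pseudogenes, and 5 of them were rows of the count tables, with at most 8 counts in a library. How reads shared between such copies were counted is not given, and its part in the low value was not tested.

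Ssr1, Ssr2 and Ssr3 encode subunits of the translocon-associated protein complex, which helps some signal sequences to enter the channel. Ssr3 was at 382, 288 and 336 CPM in the nicotine group and 476, 406 and 393 CPM in the control group. The groups did not overlap, at a log2 fold change of -0.34 (SE 0.18, 95% interval -0.74 to 0.05) with an unadjusted p of 0.0840 and an adjusted p of 0.814 in edgeR. Ssr1 and Ssr2 had smaller values, -0.15 and -0.17, with overlapping groups. The ratio of Ssr3 to Ssr1 counts was 1.18, 0.772 and 1.05 in the nicotine group and 1.17, 1.22 and 0.997 in the control group, which overlapped. Spcs1, Spcs2 and Spcs3 encode subunits of signal peptidase. Their log2 fold changes were -0.13, -0.18 and -0.29. Spcs3 was at 59.2, 80.5 and 44.8 CPM in the nicotine group and 84.9, 61.7 and 79.8 CPM in the control group. Nicotine replicate 3 was its lowest library, at 0.561 times the median of the others. Without that library the log2 fold change of Spcs3 was -0.11.

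Fold changes were also listed by promoter element. The 10 genes found to hold an ERSE or ERSE-II had log2 fold changes with a median of 0.02, 7 above 0 and 3 below. The 18 genes with a searched promoter and neither element had a median of -0.17, with 4 above 0 and 14 below, and 8 of the 18 were the translocon and signal peptidase genes. These are counts and medians, with no test between the 2 groups.

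**Figure D4:**
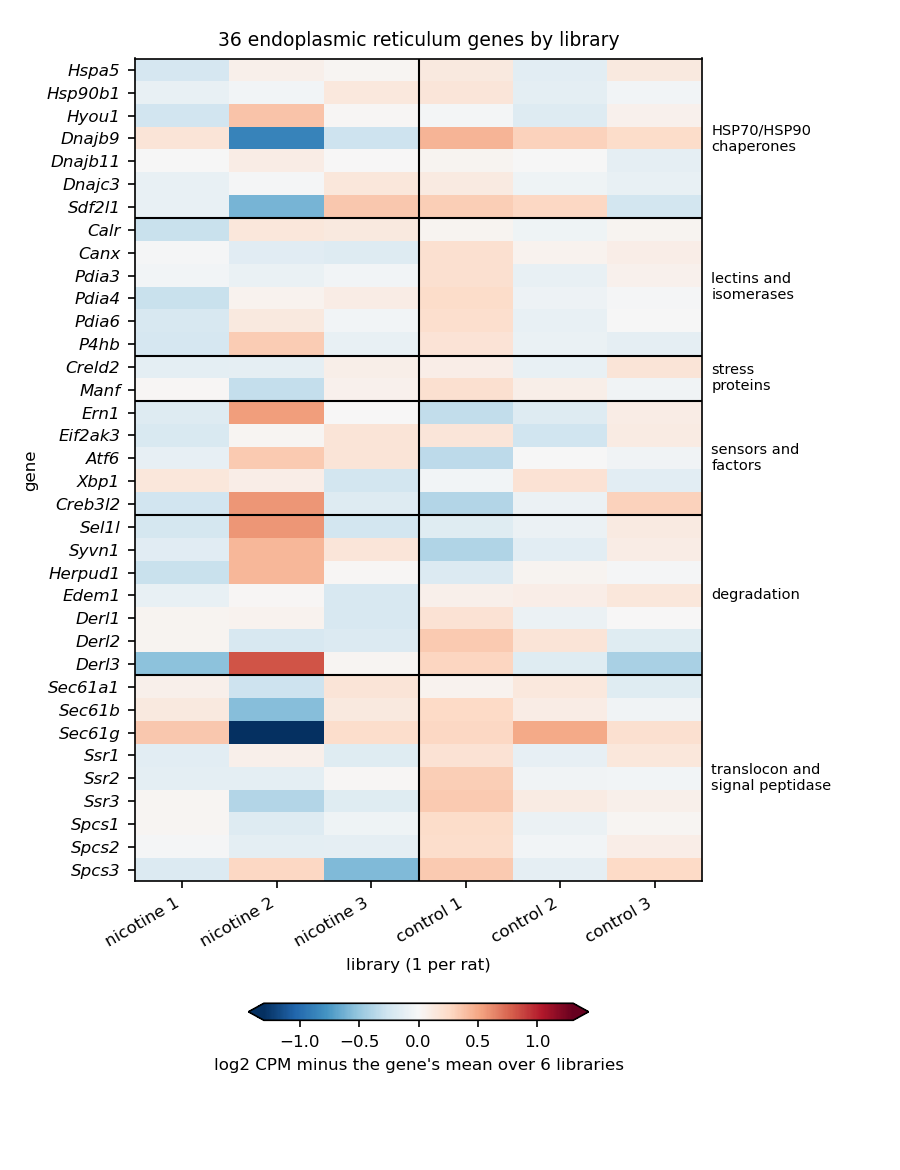
Log2 CPM of each of the 36 genes (rows, grouped by role) in each library (columns), as the difference from that gene's mean over the 6 libraries (red higher, blue lower). Nicotine replicate 2 holds the strongest colours in both directions, and control replicate 1 is mostly red in the translocon and signal peptidase rows.

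The libraries were also compared one by one. A library more than 1.5 times above or below the median of the other 5 occurred in 9 of the 36 genes (25.0%), against 47.1% of all genes tested. In the wider list described below the share was 27.7%. Of the 9 genes among the 36, 8 had nicotine replicate 2 as that library. It was low for Sec61g, Dnajb9, Sdf2l1 and Sec61b and high for Ern1, Sel1l, Creb3l2 and Derl3. The last 4 stood at 1.63, 1.65, 1.66 and 1.96 times the median of the others. Among all genes tested with such a library it was nicotine replicate 2 in 41.6%. The sum of the posterior lobe marker genes, highest in nicotine replicate 2, its levels of Gh1, Lhb, Prl and Pomc, and its depth are given above. Their part in these values was not tested.

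Control replicate 1, the shallowest library, was the highest library for 17 of the 36 genes (47.2%), against 20.2% of all genes tested. It was highest for 7 of the 9 translocon and signal peptidase genes and for 4 of the 6 lectin chaperones and isomerases, but for 0 of the 5 sensors and factors, of which it was the lowest library for 3. Nicotine replicate 2 was highest for 11 genes (30.6%, against 26.9% of all genes) and nicotine replicate 3 for 4 (11.1%, against 16.5%). Control replicates 2 and 3 were highest for 2 each (5.56%, against 8.94% and 14.1% of all genes). Nicotine replicate 1 was highest for 0 of the 36 genes, against 13.4% of all genes. It was lowest for 10 (27.8%, against 15.2% of all genes), and so was nicotine replicate 2 (27.8%, against 26.8%). Nicotine replicate 2 was the lowest library for 6 of the 9 translocon and signal peptidase genes. As a median over those 9 genes, log2 CPM stood at 0.26 above the gene's mean in control replicate 1 and at -0.16 in nicotine replicate 2. For the 5 sensors and factors these medians were -0.32 and 0.34. The highest library of each gene was recounted after thinning every library to the smallest total. Beyond that recount, the part of library depth in this order was not tested. After thinning to the smallest total the 36 genes again gave 0 calls, against 1 call among the 16303 genes tested. The groups did not overlap for 4 of the 36 (11.1%), against 11.1% of all genes in that setting.

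**Figure D5:**
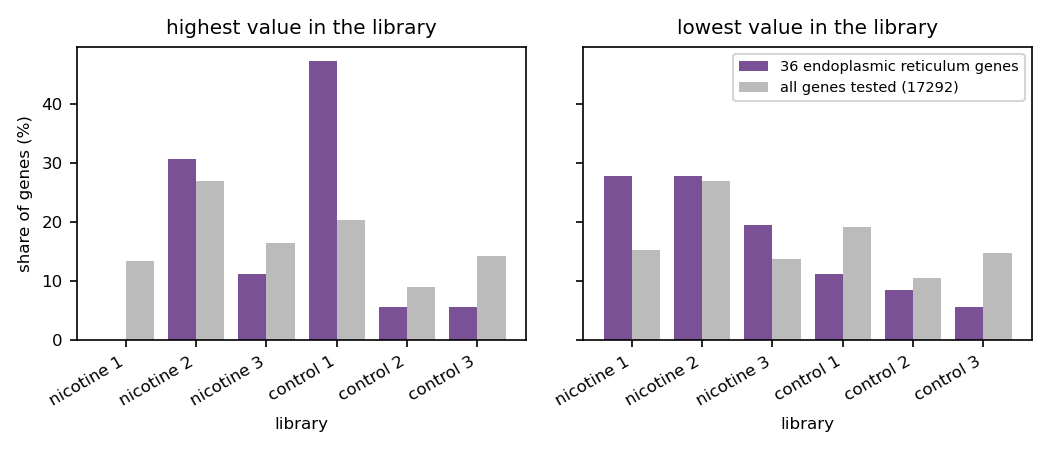
Share of genes (%, vertical axes starting at 0) whose highest (left) or lowest (right) value falls in each library, for the 36 genes (purple) and all 17292 genes tested (grey). Control replicate 1 is the highest library for 47.2% of the 36 genes and 20.2% of all genes, and nicotine replicate 1 for 0% and 13.4%.

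A wider list of 116 genes of the same pathways was measured beside the 36. Of these, 115 were in the tables and 112 were tested, with 0 calls in edgeR, a median log2 fold change of -0.01, and 55 values above 0 and 57 below. At an unadjusted p under 0.05, 2 of the 112 (1.79%) were higher and 0 lower, against 3.13% higher and 3.01% lower among all genes tested. The groups did not overlap for 11 (9.82%), 6 higher and 5 lower, which is again close to the share of all genes. The lowest p in each direction, among genes without overlap, were as follows. Creb3l1, a relative of Creb3l2, was at 91.3, 74.9 and 51.4 CPM in the nicotine group and 32.6, 49.3 and 32.4 CPM in the control group. Its log2 fold change was 0.93 (SE 0.24, edgeR adjusted p = 0.760), and it was the only 1 of the 112 that DESeq2 called, where 0.347% of all genes were called. Bag6, which shields hydrophobic protein segments in the cytosol, had a log2 fold change of 0.49 and was highest in nicotine replicate 2. Bak1, an apoptosis gene that also acts at this membrane, had 0.35. Lower values were found for Tmed2, a cargo receptor of transport vesicles (-0.45), for Mbtps2, the protease that releases ATF6 from the membrane (-0.36), and for Ngly1, which strips sugars from retrotranslocated proteins (-0.28). In this list, too, a library over 1.5-fold from the others was most often nicotine replicate 2, in 25 of 31 genes (80.6%). Among all genes tested with such a library that share was 41.6%. Of the 25 genes, 9 were high and 16 low in nicotine replicate 2.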

How the data were processed

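Stranded paired-end libraries (NEBNext Ultra II Directional) were mapped by the authors to rat genome rn7 with HISAT2 2.1.0, and reads were assigned with featureCounts to gene symbols of the ncbiRefSeq annotation (UCSC). The deposited values are raw counts. Whether reads or pairs were counted, the strand setting and the handling of multiply mapped reads are not given in the sources used here. Here, counts were analysed with edgeR 4.0.16 in R 4.3.3: filterByExpr, TMM, the quasi-likelihood test without covariates, and Benjamini-Hochberg adjustment over all 17292 genes tested. The thresholds are those of the study's methods. Standard errors and 95% intervals come from that fit, and SD is over 3 libraries. The procedure was also run on simulated counts, drawn independently for each gene, with no library set apart from the others. Libraries such as nicotine replicate 2 are therefore not covered by that run. Alternatives were DESeq2 1.42.0, RLE factors, scaling by library size alone, omitting the filter, a stricter filter (10 counts in every library), genes over 1% of counts left out, thinning, a replicate block and leaving out each library. The older quasi-likelihood fit was added after seeing the data. Named genes are all 36, and of the wider list every called gene and the 3 lowest p-values in each direction among genes without overlap. The members and lists were chosen with earlier results of these data known. Replicates are separate rats. For the 36 genes, counts were 340 to 185910 per gene and library. Motifs were searched as exact letters in RefSeq promoters (GRCr8), a build other than that of the counts. The promoter of 1 of the 36 genes is not reported here and was left out of all promoter counts. No protein sequence or transcript length was used here.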

Additional observations from a re-analysis of the deposited data

How the results depend on the processing

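None of the 36 genes was called with DESeq2, the other scalings and filters, thinning, the replicate block, the older fit or any library left out. Over all genes, 0 calls became 62 with DESeq2 (19 higher, 43 lower), 1 with library sizes alone, 2 without a filter, 1 after thinning, 2 with the replicate block, and 0 to 9 when 1 library was left out (9 without nicotine replicate 3, 4 without control replicate 2). The wider list had 1 call with DESeq2 (Creb3l1) and 0 otherwise. The number of the 36 genes with an unadjusted p under 0.05 was 0 to 2 when 1 library was left out (2 without nicotine replicate 2, and 0 when nicotine replicate 3 or either of control replicates 1 and 2 was absent), against 3.82% to 9.07% of all genes. The number without overlap was 2 with library sizes alone (5.56%, against 11.7% of all genes) and 5 to 9 when 1 library was left out (13.9% to 25.0%, against 17.1% to 25.6% of all genes). With library sizes alone, control replicate 2 was highest for 1 gene and control replicate 3 for 4. The median of the 36 genes ran from -0.14 to -0.03 when 1 library was left out. The cause of these shifts was not tested.

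Of 504 single-gene values over these settings, the older fit apart, 461 kept their sign and side of the threshold and 43, in 17 genes, changed sign. Hsp90b1 was at -4.06e-05 with genes over 1% left out and -0.00447 after thinning, and Calr at -0.000203, -0.00137 and, with the replicate block, -0.00805. Library sizes alone gave 0.0378 for Eif2ak3, 0.0484 for Xbp1 and 0.0311 for Sec61a1, and no filter gave 0.00526 for Eif2ak3 and 0.00458 for Xbp1. When 1 library was left out, the ranges were -0.16 to 0.00027 for Hspa5, -0.067 to 0.089 for Hsp90b1, -0.076 to 0.25 for Hyou1, -0.041 to 0.10 for Dnajc3, -0.082 to 0.13 for Calr, -0.17 to 0.014 for Pdia4, -0.17 to 0.023 for Pdia6, -0.16 to 0.14 for P4hb, -0.13 to 0.083 for Eif2ak3, -0.083 to 0.10 for Xbp1, -0.19 to 0.32 for Creb3l2, -0.21 to 0.26 for Sel1l, -0.0896 to 0.29 for Herpud1, -0.13 to 0.0038 for Derl1, -0.16 to 0.55 for Derl3, -0.11 to 0.10 for Sec61a1 and -0.28 to 0.00803 for Sec61b.

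The labels do not say whether replicate numbers pair the rats. Deviations of same-numbered libraries correlated at 0.03, -0.20 and -0.08 across genes, which with 3 libraries a group cannot settle it. The replicate block gave 0 calls among the 36 genes. With 3 rats a group, log2 fold changes of these genes carried standard errors of 0.14 to 0.39, and the 95% interval reached past 1.5-fold for every one of them except 20.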
